A study of Mus musculus with 2 samples.

Results

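The genes described here are the Reg3 lectins *Reg3a*, *Reg3b* and *Reg3g* together with *Itln1*, *Mptx2*, *Leap2* and *Spink1*, secreted products of the small intestinal epithelium that act on microbes or guard the mucosa. They were chosen by name, 7 of the 16665 genes listed in either of 2 single-cell libraries of mouse ileal enteroids. Values were obtained for 6 of them, and *Mptx2* was not analysed here. Of the 6, 4 had at least 200 unique molecular identifiers (UMIs, 1 per captured transcript) over both libraries. *Reg3a* and *Reg3b* stayed below this number and are described from their few molecules.

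Reg3 proteins are C-type lectins that bind the bacterial cell wall and keep bacteria away from the epithelial surface. In the intact gut, *Reg3b* and *Reg3g* are known to be induced by microbial signals through *Myd88* and by interleukin-22 of immune cells through *Stat3*. *Itln1* encodes intelectin, a lectin for microbial glycans made by Paneth and goblet cells, and *Mptx2* a mucosal pentraxin of Paneth cells. *Leap2* encodes a peptide of enterocytes and liver that was named for its antimicrobial activity and that also blocks the ghrelin receptor. *Spink1* encodes a Kazal-type inhibitor of trypsin.

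Enteroids are crypt-derived epithelial structures grown in Matrigel, without the immune cells and microbes of the gut wall. The control library is labelled WT with ethanol, and the other library KO with 4-hydroxytamoxifen (4-OHT), both of C57Bl6/129sv strain and from mice that were 4 months old. The study names the knockout *Taf4IEC*, in which floxed *Taf4* is deleted by a tamoxifen-activated Cre under the Villin promoter of the intestinal epithelium, here with 1 µM 4-OHT over 3 days. Its methods give the control as Taf4lox/lox enteroids that also received 4-OHT, whereas the label names ethanol alone, so an effect of 4-OHT and one of the deletion cannot be told apart from the labels. How many mice gave each library was not stated in the sources used here.

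The control library held 39947009 UMIs in 2563 cells (median 16749 per cell) and the *Taf4IEC* library 24990128 UMIs in 1811 cells (median 2254), with 17.3% of control cells and 49.1% of *Taf4IEC* cells below 2000 UMIs. The libraries shared 2 cell barcodes. The library labelled *Taf4IEC* did not have fewer *Taf4* transcripts (278 UMIs in the control and 236, log2 ratio 0.44), and counts per gene do not tell a recombined allele from an intact one. With 1 library per condition no test between conditions was possible, and all 95% intervals cover counting error only. A level is the number of UMIs of a gene per 10000 UMIs in total, and each log2 ratio sets *Taf4IEC* over control. The median log2 ratio of the 10002 genes with at least 200 UMIs was 0.16. With totals that omitted ribosomal protein genes, mitochondrial genes, *Gm42418* and *AY036118* it was -0.03. Of the markers of other cells, 6 of 9 immune markers were listed and summed to 0.0218 and 0.0296 UMIs per 10000, and 4 of 9 stromal markers to 0.0128 and 0.0124. Of 8 acinar and liver markers 4 were listed, with 4110 and 2579 UMIs, of which 3153 and 1875 were of *Ttr*, a gene also known from enteroendocrine cells.

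The 3 Reg3 genes lie on chromosome 6 of GRCm38.p6, *Reg3b* at 78370885 to 78373466, *Reg3a* at 78380709 to 78383839 and *Reg3g* at 78466269 to 78468874. *Itln1* lies on chromosome 1 at 171518123 to 171535325 and *Leap2* on chromosome 11 at 53422181 to 53423136. The 120 bases before the annotated start of the 3 Reg3 genes are shown. In the control, most *Reg3g* UMIs lay in other classes of cells than those of its near neighbours *Reg3a* and *Reg3b*. Sequences are from RefSeq (GRCm38.p6), 5′ to 3′ on the strand of the gene, and capitals mark the letters TATAAA.
Reg3a: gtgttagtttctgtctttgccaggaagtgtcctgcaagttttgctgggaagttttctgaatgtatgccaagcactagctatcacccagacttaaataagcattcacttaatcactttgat
Reg3b: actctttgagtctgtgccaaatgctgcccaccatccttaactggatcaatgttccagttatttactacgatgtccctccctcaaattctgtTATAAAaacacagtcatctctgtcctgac
Reg3g: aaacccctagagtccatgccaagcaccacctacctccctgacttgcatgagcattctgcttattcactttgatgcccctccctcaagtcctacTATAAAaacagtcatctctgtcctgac
The windows are chr6:78380589-78380708 (plus strand) for *Reg3a*, chr6:78370765-78370884 (plus strand) for *Reg3b* and chr6:78468875-78468994 (minus strand) for *Reg3g*. TATAAA, the core of the TATA box, began 29 bases before the start of *Reg3b* and 27 before that of *Reg3g*. Searched on both strands, it was in 6.34% of the 32844 windows of this length. The letters of a Stat site, TTCNNNGAA, were in 3.15% of all windows and in none of the 3 shown. In a global alignment, 70.5% of positions were identical between *Reg3b* and *Reg3g*. The windows of *Reg3a* and of the other two are offset by their annotated starts. The last 19 bases of the *Reg3b* and *Reg3g* windows, with any base allowed at 2 positions, began 28 bases after the annotated start of *Reg3a*, so nothing is read from the letters or the identity of the *Reg3a* window.

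To place the transcripts in cell types, each library was clustered alone without the listed antimicrobial and pathway genes, which gave 13 clusters in each. A cluster could be named where 3 or more fixed markers of a class, each with at least 10 UMIs, reached 1.5 times their mean level over both libraries. The class with the most such markers gave the name, and a tie gave none. A name was withheld where markers of another class prevailed among the 10 leading genes. It was also withheld where no own marker led and the cluster was shallow or led by genes of low-quality cells. The *Taf4IEC* clusters of 472, 101 and 15 cells met 3, 5 and 3 markers of a class and stayed unnamed. Named stem-like were 1064 control and 437 *Taf4IEC* cells, enterocyte-like 230 and 181 cells, Paneth/goblet-like 276 and 179 cells, enteroendocrine-like 260 and 216 cells and tuft-like 0 and 15 cells, whereas 733 and 783 cells lay in clusters without a name. The classes did not hold the same cells in both libraries. Of the stem-like *Taf4IEC* cells 220 were 1 cluster led by the mitosis genes *Cdc20* and *Cenpa*. It met 3 of the 11 stem markers, none of them among its leading genes. The stem-like control clusters of 201 and 135 cells were also led by mitosis genes, and met 5 and 4 stem markers. In these and in the stem-like control clusters of 285 and 94 cells, 0 stem markers were among the leading genes. The depth differed, at a median of 2354 UMIs per cell in the 220 cells, whereas the 5 stem-like control clusters had medians from 17008 to 26811. The unnamed control cells were a shallow cluster of 429 cells and a cluster of 304 cells led by *Nupr1*, and the unnamed *Taf4IEC* cells were clusters of 472, 101 and 15 cells with genes of low-quality cells among their leading genes and 1 of 195 cells led by *Tmem237*. The Paneth/goblet-like control cells formed 1 cluster. In the *Taf4IEC* library they formed 2 clusters, one of 92 shallow cells led by Paneth defensins (median 900 UMIs per cell) and one of 87 deep cells led by the goblet genes *Muc2* and *Zg16* (median 32390).

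Over all cells, *Itln1* and *Spink1* were at least 2-fold higher in the *Taf4IEC* library, *Leap2* was higher by less than 2-fold, and *Reg3g* had about the same level in both. Of the 4 genes with at least 200 UMIs, 2 were at least 2-fold higher and 0 lower, against 5.52% of all genes with this many UMIs higher and 3.48% lower. *Reg3a* and *Reg3b* were lower, on few molecules. In a sum over a library, more cells of a type and more transcripts per cell cannot be told apart, so the levels are given below by class of cells.

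**Figure D1:**
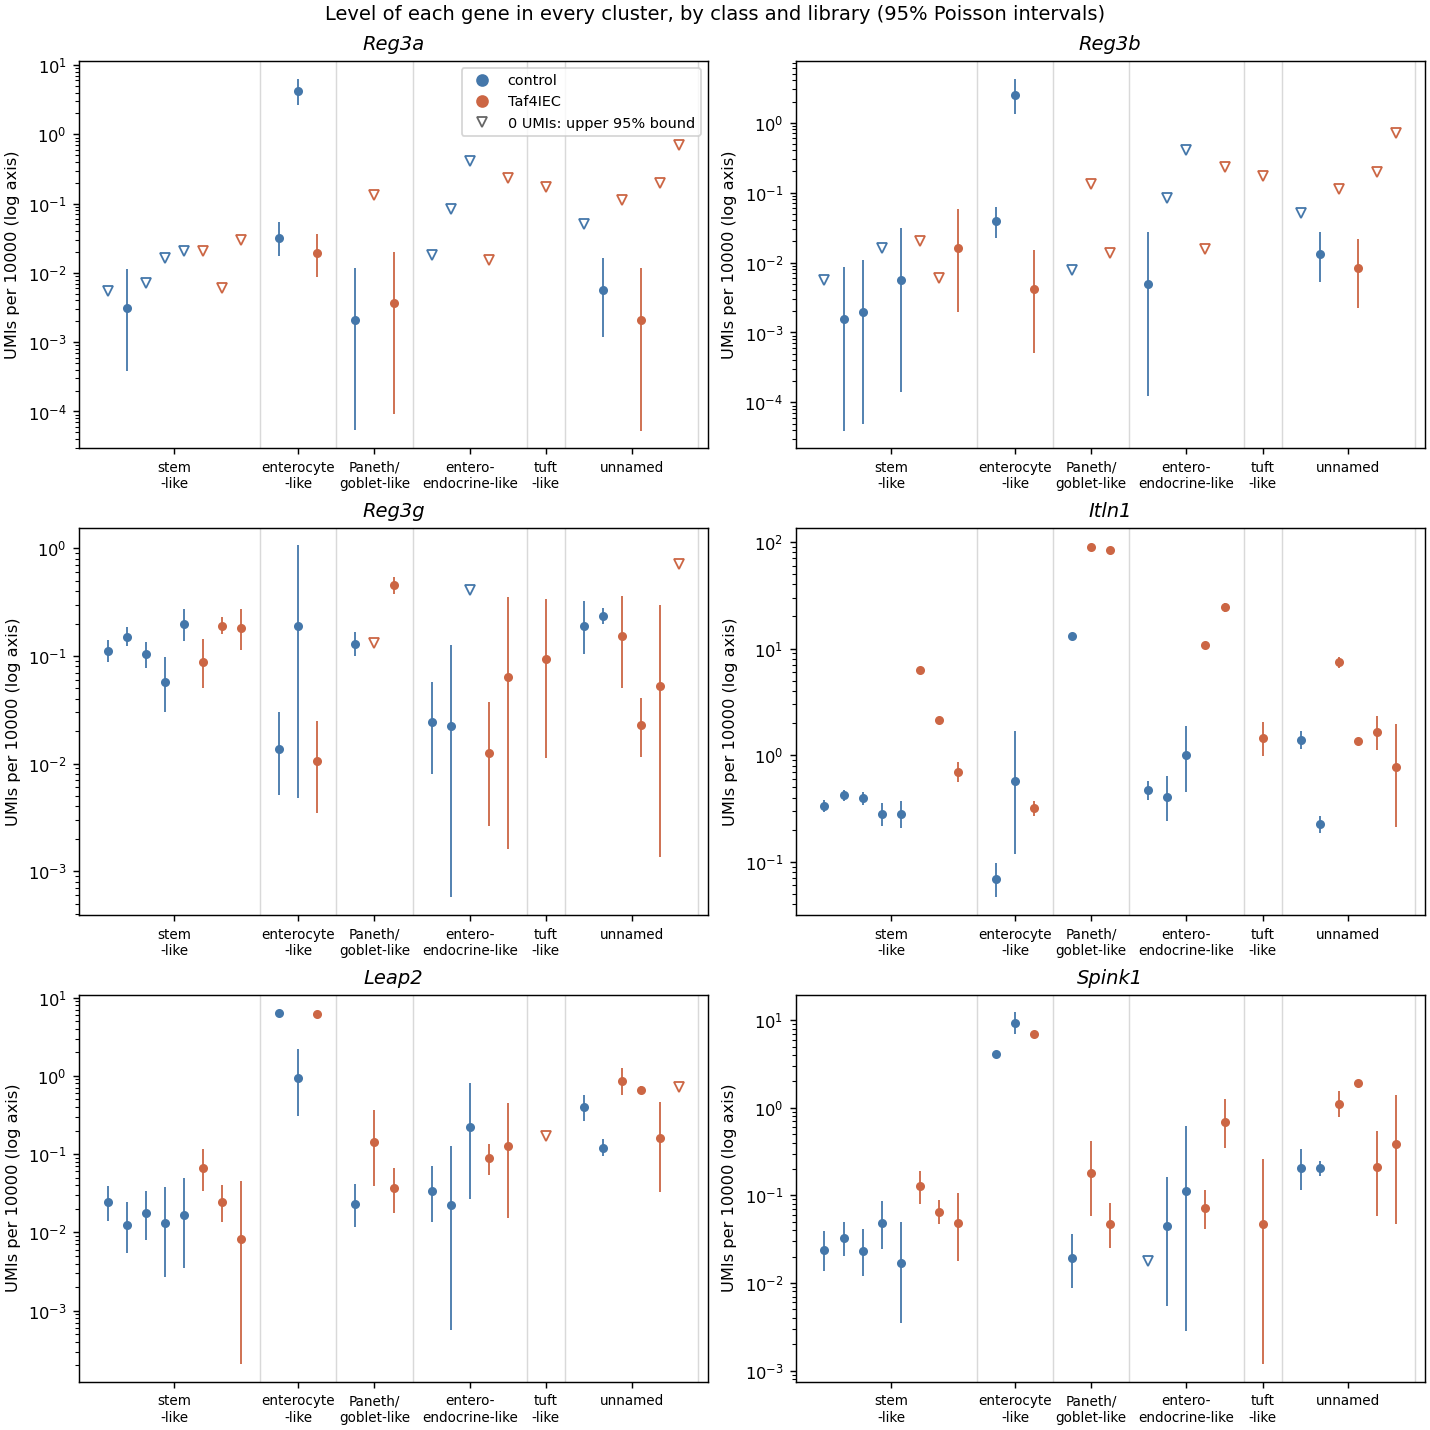
Level of each gene in every cluster (UMIs per 10000, log axis), grouped by class, with 95% Poisson intervals, control in blue and *Taf4IEC* in orange. Open triangles are upper bounds of clusters with 0 UMIs. *Reg3a* and *Reg3b* peak in 1 small enterocyte-like control cluster (4.20 and 2.48), *Leap2* and *Spink1* in enterocyte-like clusters of both libraries, and *Itln1* in Paneth/goblet-like clusters (13.2 in the control, 89.3 and 84.6 in *Taf4IEC*).

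*Reg3a* and *Reg3b* transcripts were rare and lay mostly in enterocyte-like cells of the control. *Reg3a* had 42 UMIs in 27 control cells and 11 UMIs in 9 *Taf4IEC* cells, a log2 ratio of -1.26 (-2.36 to -0.27). *Reg3b* had 41 UMIs in 18 control cells and 8 in 6 *Taf4IEC* cells, a log2 ratio of -1.68 (-2.99 to -0.57). Enterocyte-like cells held 85.7% of the *Reg3a* UMIs of the control and 81.8% of those of the *Taf4IEC* library. For *Reg3b* these shares were 73.2% and 25.0%, the latter 2 of 8 UMIs. Within enterocyte-like cells, *Reg3a* had 36 and 9 UMIs (0.0815 and 0.0191 per 10000), and its log2 ratio was -2.09 (-3.33 to -1.01). *Reg3b* had 30 and 2 UMIs there (0.0679 and 0.00425 per 10000), and its log2 ratio was -4.00 (-7.11 to -2.02). At these counts neither gene reached 200 UMIs, and 1 control cell held 16 of the 41 *Reg3b* UMIs. Without the highest cell of each library, the log2 ratio of *Reg3b* over all cells was -1.38 (-2.96 to -0.06).

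Much of this signal came from a single small cluster. An enterocyte-like control cluster of 21 cells, led by *Fabp6*, the bile acid binding protein of ileal enterocytes, and by *Rbp2*, had 22 *Reg3a* UMIs in 12 of its cells, a level of 4.20 (2.63 to 6.36) and 52.4% of all *Reg3a* UMIs of that library. The other enterocyte-like control cluster, of 209 cells, had 14 *Reg3a* UMIs (0.0321, 0.0175 to 0.0538), and the 181 enterocyte-like *Taf4IEC* cells had 9 (0.0191, 0.00874 to 0.0363). The intervals of these latter clusters overlapped, and the small one stood 131 times above the next cluster of its library. *Reg3b* had 13 UMIs in the 21 cells (2.48, 1.32 to 4.24) and 17 in the 209 cells (0.0389), of which 16 were in 1 cell. Without the small cluster the log2 ratio over all cells was -0.19 instead of -1.26 for *Reg3a* and -1.13 (-2.48 to 0.04) instead of -1.68 for *Reg3b*. *Fabp6* stood at 17.4 in the 21 cells, 0.958 in the 209 cells and 0.707 in the enterocyte-like *Taf4IEC* cells, and its log2 ratio over all cells was 0.06. The depth of the 21 cells was low, at a median of 2423 UMIs against 21822 in the larger cluster and 31396 in the *Taf4IEC* enterocyte-like cells, and the part of this depth in the result was not tested. Among control cells with either gene, 8 had both, which was 29.6% of the *Reg3a* cells and 44.4% of the *Reg3b* cells. In the *Taf4IEC* library 0 cells had both. Across the 24 clusters of at least 20 cells in both libraries, *Fabp6* had the profile most like those of *Reg3a* and *Reg3b* (Pearson r of 0.883 and 0.875 on log2 levels with 0.1 added). Between *Reg3a* and *Reg3b*, r was 0.999 over the 13 control clusters and 0.12 over the 11 *Taf4IEC* clusters. All clusters but the 21 cells had levels of both genes below the added 0.1. The r with *Fabp6* and the control r therefore rest on 1 cluster, and the *Taf4IEC* r on 11 and 8 UMIs. No difference between the libraries is read from them.

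In the control, most *Reg3g* transcripts lay in other classes of cells than those of *Reg3a* and *Reg3b*. Single cells could hold both, as 5 of the 27 control *Reg3a* cells and 3 of the 18 *Reg3b* cells also had *Reg3g* (18.5% and 16.7%). Of all control cells 12.2% had *Reg3g*. In the *Taf4IEC* library 0 of 9 *Reg3a* cells and 1 of 6 *Reg3b* cells had it. *Reg3g* had 484 UMIs in 313 control cells (0.121 per 10000, 0.111 to 0.132) and 307 UMIs in 96 *Taf4IEC* cells (0.123, 0.109 to 0.137), a log2 ratio of 0.02 (-0.19 to 0.23). Stem-like cells held 56.2% of its UMIs in the control and 50.5% in the *Taf4IEC* library, and enterocyte-like cells held 7 and 5 UMIs. In the control its level lay between 0.0571 and 0.197 in the stem-like clusters, at 0.129 in the Paneth/goblet-like cluster and at 0.235 (0.196 to 0.281) in a cluster of 304 cells without a name. The cells of that unnamed cluster were led by *Nupr1*, a stress-response gene, and also expressed *Areg*, an epidermal growth factor receptor ligand, among their 10 leading genes. No pair of neighbouring clusters in the order of control *Reg3g* levels had intervals that stood apart. In the thinned data, 1.89% of stem-like control cells and 3.34% of stem-like *Taf4IEC* cells had a *Reg3g* UMI at 2000 UMIs per cell, against 0.943% and 0.730% of enterocyte-like cells, from 20, 11, 2 and 1 cells. Without thinning, the stem-like shares were 18.0% and 13.5% at median depths of 21033 and 24307 UMIs, and thinning left out 108 of the 437 *Taf4IEC* cells. Since these orders are opposite, none is read from them.

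By class the levels of *Reg3g* were unequal, and 2 cells held much of its signal. Its log2 ratio was 0.47 (0.17 to 0.76) in stem-like cells, from 272 and 155 UMIs, and 1.67 (1.21 to 2.13) in Paneth/goblet-like cells, from 61 and 124 UMIs. In cells without a name it was -2.86 (-3.68 to -2.13), from 138 and 17 UMIs. This last value compares different cells, as given above. In the *Taf4IEC* library 1 Paneth/goblet-like cell held 88 *Reg3g* UMIs beside 448 of *Itln1* and 125 of *Muc2*, and 1 stem-like cell held 58 *Reg3g* UMIs. Together these cells had 47.6% of the *Reg3g* UMIs of the library, whereas the 2 highest control cells had 3.72%. Without the highest cell of each library (and, for a class, of each class) the log2 ratio was -0.15 (-0.50 to 0.19) in stem-like cells, 0.07 (-0.58 to 0.70) in Paneth/goblet-like cells and -0.44 (-0.67 to -0.20) over all cells. Without the 2 highest cells of each library it was -0.85 (-1.12 to -0.59) over all cells. The cells left out were chosen by their *Reg3g* counts, so these values describe how far the ratio rests on them and no direction is drawn.

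**Figure D2:**
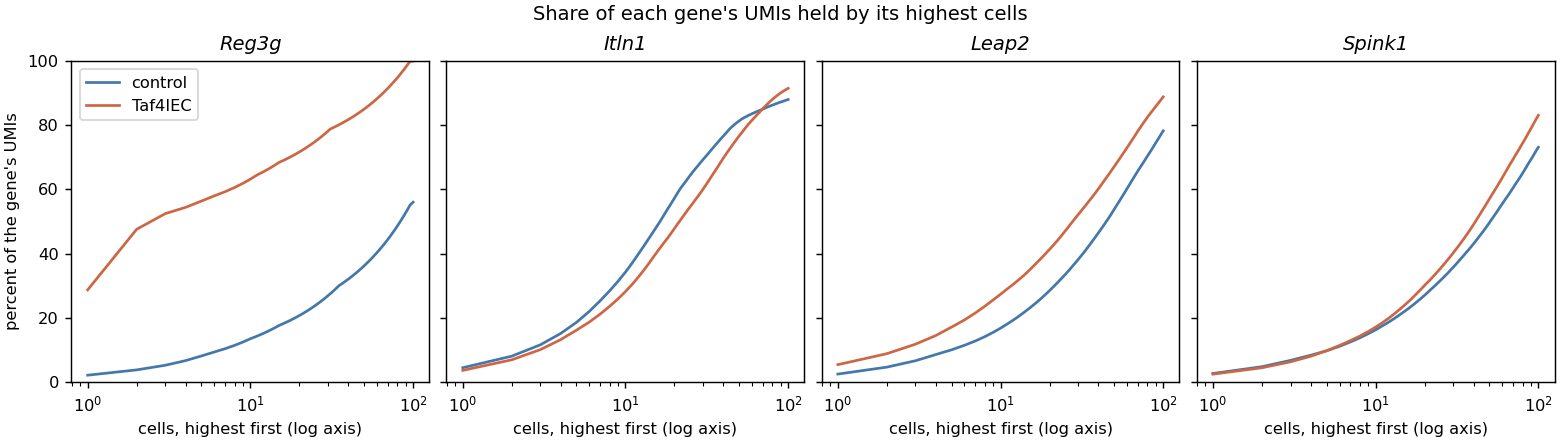
Cumulative percent of each gene's UMIs (y axis) held by its highest cells, ranked from highest (x axis, log scale), for the control (blue) and *Taf4IEC* (orange) libraries. For *Reg3g*, 2 *Taf4IEC* cells hold 47.6% of the UMIs and 2 control cells 3.72%, whereas no single cell holds over 5.35% of the UMIs of *Itln1*, *Leap2* or *Spink1*.

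*Itln1* had the largest ratio of the 6 genes and was higher in the *Taf4IEC* library in every class named in both libraries. It had 7413 UMIs in 700 control cells (1.86 per 10000, 1.81 to 1.90) and 32239 UMIs in 900 *Taf4IEC* cells (level 12.9), 6.95-fold higher (log2 ratio 2.80, 2.76 to 2.83). Paneth/goblet-like cells held 84.0% of these UMIs in the control and 79.6% in the *Taf4IEC* library. The control cells stood at 13.2 (12.9 to 13.5) and the *Taf4IEC* cells at 85.0 (84.0 to 86.1), which gave a log2 ratio of 2.69 (2.65 to 2.73). *Itln1* was the 1 gene of the group with at least 200 UMIs in this class, in which 3.14% of all genes were at least 2-fold higher and 2.08% lower. Both *Taf4IEC* clusters of the class stood near each other, the 92 Paneth-led cells at 89.3 (85.8 to 92.8) and the 87 goblet-led cells at 84.6 (83.5 to 85.7), although their median depths differed. Leaving out the highest cell of each library gave 2.71 in this class. Naming classes cell by cell from marker UMIs gave 1.71, the lowest value among the alternatives for this class.

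The difference between the Paneth/goblet-like classes was spread over many cells and not held by a few. The control class also had more of the stem cell marker *Olfm4*, at a level of 1.66 against 0.0696 in *Taf4IEC*. With smaller control classes the control *Itln1* level was higher, 18.4 at resolution 1.4 (194 cells) and 26.4 with classes per cell (111 cells). The *Taf4IEC* levels were then 85.0 and 86.4. How far the cells grouped in the control class shaped the counts below was not tested. After thinning to 5000 UMIs per cell, 164 of 257 control cells had 0 *Itln1* UMIs, the median was 0, the 90th percentile 23.4 and the highest cell 100. Of 95 *Taf4IEC* cells 10 had 0, the median was 28, the 90th percentile 107 and the highest cell 326. The *Taf4IEC* cells above this depth came mostly from the goblet-led cluster, and 19 control and 84 *Taf4IEC* cells were too shallow to be thinned. At 2000 UMIs per cell, 28.3% of control and 83.8% of *Taf4IEC* Paneth/goblet-like cells had an *Itln1* UMI (51.8% and 75.4% without thinning). In enterocyte-like cells, which are not known to make intelectin, the shares were 0.943% and 7.30% (13.5% and 49.7% without thinning, median depths 20956 and 31396 UMIs against 16638 and 8954 in Paneth/goblet-like cells).

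Outside the Paneth/goblet-like class, *Itln1* was also higher in the *Taf4IEC* library. In stem-like cells 809 and 2521 UMIs were counted (0.364 and 2.75 per 10000), giving a log2 ratio of 2.92 (2.81 to 3.04), where of 2 genes of the group with at least 200 UMIs 1 was at least 2-fold higher and 0 lower, against 3.67% and 2.76% of all genes. Counting a marker only from 2 times the mean of the libraries left 34 stem-like *Taf4IEC* cells and a log2 ratio of 0.94, the lowest of the alternatives. The stem-like *Taf4IEC* clusters stood apart, at 6.23 (220 cells), 2.14 (183 cells) and 0.703 (34 cells), all above the 0.281 to 0.422 of the stem-like control clusters. Enteroendocrine-like cells had 123 and 2966 *Itln1* UMIs (0.476 and 11.7), and the log2 ratio was 4.62 (4.36 to 4.89) in a class where 2.77% of all genes were at least 2-fold higher and 1.01% lower. A single *Taf4IEC* cell held 1005 of these UMIs, and without the highest cell of each library the log2 ratio was 4.42. Enterocyte-like cells had 33 and 151 UMIs, and the log2 ratio was 2.10 (1.55 to 2.69). Some other genes of Paneth and goblet cells were also higher in the same classes, and some were lower. *Reg4*, with 60.1% and 80.6% of its UMIs in Paneth/goblet-like cells, had a log2 ratio of 0.10 (-0.07 to 0.28) in stem-like cells. Its log2 ratio was -0.93 in enteroendocrine-like and -1.51 in enterocyte-like cells. In stem-like cells *Lyz1*, the lysozyme of Paneth cells, was 5.12-fold, *Ang4*, an antimicrobial ribonuclease of Paneth cells, 5.18-fold and the goblet lectin *Zg16* 6.98-fold higher in the *Taf4IEC* library, whereas the defensin *Defa24* had a log2 ratio of -1.08. In enteroendocrine-like cells *Lyz1* was 4.10-fold, *Ang4* 16.2-fold and *Defa24* 8.87-fold higher, and in enterocyte-like cells *Lyz1* was 3.70-fold and *Ang4* 3.28-fold higher, with a log2 ratio of -0.49 for *Defa24*. Their part in the *Itln1* values was not tested.

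The genes with cluster profiles most like that of *Itln1* were other secretory genes. Across the 24 clusters, *Ang4* had the profile most like that of *Itln1* (r = 0.947), then *Spink4* (0.927) and *Tff3* (0.904), both goblet products. These r describe clusters that share libraries and depth. The ratio of *Itln1* to *Lyz1* was 0.572 (0.555 to 0.590) in the Paneth/goblet-like control cluster, and 1.33 (1.25 to 1.41) and 0.713 (0.701 to 0.725) in the Paneth-led and goblet-led *Taf4IEC* clusters. The stem-like *Taf4IEC* cluster of 220 cells had a ratio of 0.649. The stem-like cluster of 183 cells had 6.28 (5.42 to 7.31) and the enteroendocrine-like cluster of 88 cells 5.20 (4.05 to 6.77), while the enteroendocrine-like cluster of 128 cells, with most of the *Itln1* UMIs of its class (2581 of 2966), had 0.602. In the stem-like control clusters the ratio ranged from 0.399 to 2.78. The part of released RNA in these levels was not tested. Intelectin genes are near-identical copies in some strains, 129 among them, so which copy a count came from is uncertain.

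**Figure D3:**
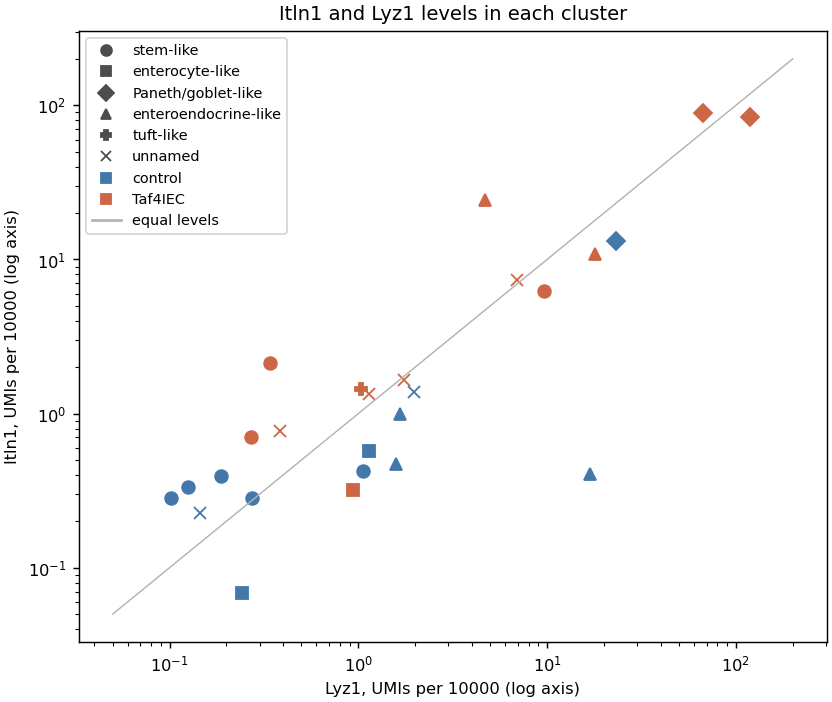
Level of *Itln1* against level of *Lyz1* in each cluster (UMIs per 10000, both log axes), with classes as symbols and libraries as colours (control blue, *Taf4IEC* orange). The line marks equal levels. The stem-like *Taf4IEC* cluster with 6.28 *Itln1* UMIs per *Lyz1* UMI lies well above the line, and the Paneth/goblet-like control cluster with 0.572 lies below it.

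*Leap2* and *Spink1* were genes of enterocyte-like cells in both libraries, and they differed in their ratio there. *Leap2* had 2906 UMIs in 301 control cells (0.727 per 10000) and 3307 in 289 *Taf4IEC* cells (1.32), a log2 ratio of 0.86 (0.79 to 0.94). *Spink1* had 2035 UMIs in 329 control cells (0.509) and 4310 in 339 *Taf4IEC* cells (1.72), 3.39-fold higher (log2 ratio 1.76, 1.68 to 1.84). Enterocyte-like cells held 94.7% and 87.6% of the *Leap2* UMIs, and 90.3% and 75.1% of the *Spink1* UMIs. Within these cells the *Leap2* level was 6.23 in the control and 6.15 in the *Taf4IEC* library, and its log2 ratio of -0.02 had an interval of -0.10 to 0.06. For *Spink1* the levels were 4.16 (3.97 to 4.36) and 6.87 (6.64 to 7.11), and the log2 ratio was 0.72 (0.64 to 0.81). Of these 2 genes 0 passed 2-fold in the class in either direction, against 1.37% of all genes higher and 1.31% lower. Both values moved with the clustering, from -0.79 to 0.28 for *Leap2* and from 0.17 to 0.98 for *Spink1*.

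The higher *Leap2* level over all cells was not seen within the enterocyte-like class. These cells took 11.1% of the UMIs of the control and 18.8% of those of the *Taf4IEC* library, but 8.97% and 9.99% of the cells. Their median depths were 20956 and 31396 UMIs, against 16749 and 2254 over all cells of each library. When the *Taf4IEC* class levels were weighted by the UMI shares of the control classes, the log2 ratio over all cells was 0.15 for *Leap2*, 1.09 for *Spink1* and 2.77 for *Itln1*. At 2000 UMIs per cell, 55.7% of control and 64.2% of *Taf4IEC* enterocyte-like cells had a *Leap2* UMI, and 52.8% and 61.3% had a *Spink1* UMI. In Paneth/goblet-like cells the shares were at most 0.952%. Without thinning, the enterocyte-like shares went the other way, 81.3% and 76.2% for *Leap2* and 88.7% and 74.6% for *Spink1*, at median depths of 20956 and 31396 UMIs, so no order is read from them. At 5000 UMIs per cell the median enterocyte-like cell had 2 *Leap2* UMIs in both libraries, and 1 *Spink1* UMI in the control and 3 in the *Taf4IEC* library.

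**Figure D4:**
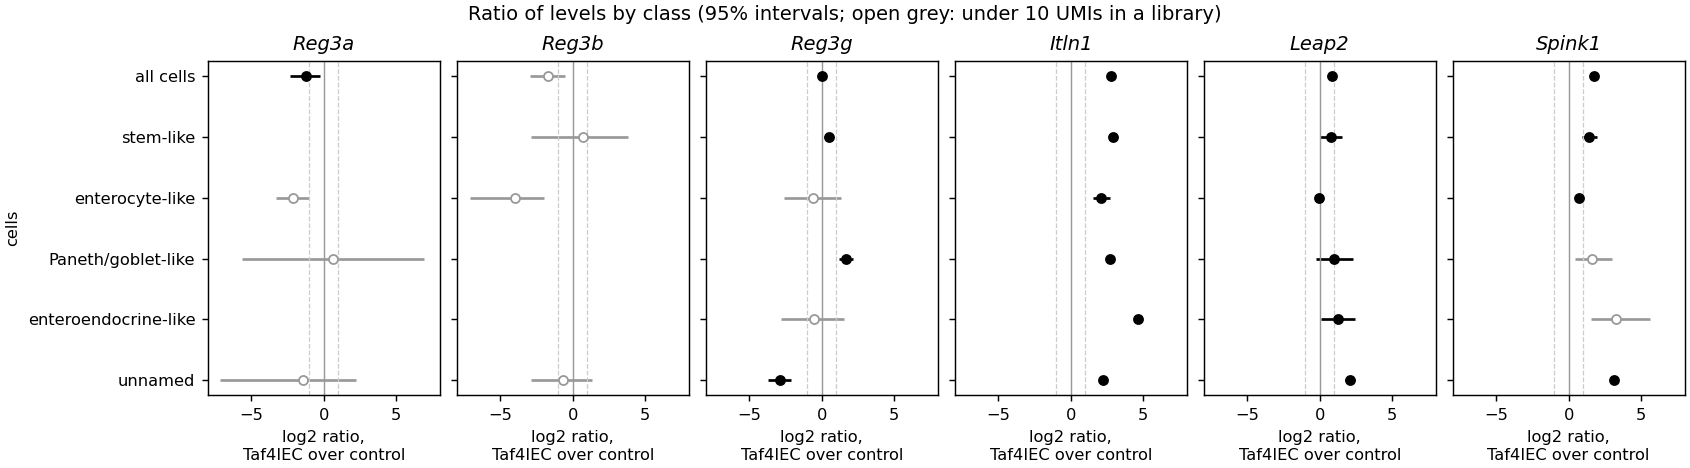
Log2 ratio of levels, *Taf4IEC* over control, of each gene over all cells and in each class, with exact 95% intervals. Open grey points have under 10 UMIs in a library, and dashed lines mark 2-fold. *Itln1* lies right of 2-fold in all classes, *Leap2* at -0.02 in enterocyte-like cells, and *Reg3g* on both sides of 0.

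The 2 enterocyte-like control clusters differed in these genes too. *Leap2* was at 6.30 (6.06 to 6.54) in the 209 cells and at 0.954 (0.310 to 2.23) in the 21 *Fabp6*-led cells. *Spink1* went the other way, at 4.10 (3.91 to 4.29) in the 209 cells and at 9.35 (6.92 to 12.4) in the 21 cells, next to *Reg3a* and *Reg3b*. Clusters without a name, which held different cells in the 2 libraries, had more of both genes in the *Taf4IEC* library. There *Leap2* had 93 and 346 UMIs (log2 ratio 2.06, 1.72 to 2.40) and *Spink1* 122 and 958 UMIs (3.13, 2.86 to 3.42), and all 3 genes of the group with at least 200 UMIs in these cells (with *Itln1*, 2.22) were at least 2-fold higher, against 6.26% of all genes higher and 2.4% lower. Most of the *Spink1* molecules lay in 1 deep *Taf4IEC* cluster of 195 cells (916 UMIs, 1.91, 1.79 to 2.04) led by *Tmem237* and with *S100g*, an intestinal calcium binding protein, among its leading genes. This cluster met 2 of the 14 enterocyte markers and had the second highest *Spink1* level of its library. Cells with both genes were common, 197 in the control (65.4% of *Leap2* cells and 59.9% of *Spink1* cells) and 177 in the *Taf4IEC* library (61.2% and 52.2%). The genes with the most similar profiles were *Nat8*, *Cyp4f14* and *Sult1b1* for *Leap2* (r from 0.964 to 0.978) and *Gm3776*, *Enpep* and *Cyp2j6* for *Spink1* (r from 0.971 to 0.975), while r between *Leap2* and *Spink1* was 0.909.

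Over the class as a whole, the median log2 ratio of the genes of the group with UMIs in both libraries was 1.64 in Paneth/goblet-like cells (5 genes) and -0.30 in enterocyte-like cells (6 genes). The former is the value of *Spink1*, from 9 and 18 UMIs, beside 1 and 1 UMIs of *Reg3a* and 11 and 14 of *Leap2*, so it rests on few molecules. The enterocyte-like median lay between genes of opposite sign, *Itln1* at 2.10 and *Reg3b* at -4.00 being the extremes.

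Of 50 other antimicrobial and barrier genes, 31 were listed and 17 had at least 200 UMIs. Of these 7 were at least 2-fold higher and 0 lower, against 5.52% and 3.48% of all genes, with a median log2 ratio of 0.77 against 0.16 for all genes. The same background holds for the counts of the lists below. *Zg16*, a goblet lectin that binds Gram-positive bacteria, had 616 and 9477 UMIs (log2 ratio 4.62, 4.50 to 4.74), and 1 *Taf4IEC* cell held 2543 of them. *Ang4* had 7021 and 31734 UMIs (2.85, 2.82 to 2.89), close to the ratio of *Itln1*. The others were *Sprr2a1*, *Sprr2a2*, *Sprr2a3* and *Sprr2b*, small proline-rich proteins, with log2 ratios from 1.98 to 2.54, and the beta-defensin *Defb37* with 1.33 (0.95 to 1.73). *Sprr2a3* had the highest level of this list in both libraries (3.84 and 15.1 per 10000). The Sprr2a genes are near-identical copies and their counts may be split between them. *Lypd8*, an epithelial surface protein that binds flagellated bacteria, was named after its values were seen and had 8335 and 2670 UMIs (-0.97, -1.03 to -0.90), just inside 2-fold. Among Paneth defensins and lysozyme 17 of 25 genes were listed and 11 had at least 200 UMIs, of which 10 were at least 2-fold higher and 0 lower (median 2.02). *Lyz1* had 13240 and 41954 UMIs (2.34, 2.31 to 2.37), and *Defa24*, with the highest level of this list, 47076 and 62390 (1.08, 1.07 to 1.10). Among 14 other peptidase inhibitors 10 had at least 200 UMIs, and 1 of them, the goblet gene *Spink4*, was at least 2-fold higher (58981 and 141804 UMIs, 1.94, 1.93 to 1.96) and 0 lower (median 0.46).

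In the pathway that is known to induce Reg3 genes, of 36 receptors and signalling genes from interleukin-22 and Toll-like receptors to *Stat3* and NF-kB, 32 were listed and 24 had at least 200 UMIs. Of these 1 was at least 2-fold higher and 0 lower, against 5.52% and 3.48% of all genes, with a median log2 ratio of 0.38. After thinning 5 were higher and 2 lower, and with equal weight for each cell 4 and 1. The shares of all genes past 2-fold under these 2 settings are not given here, so nothing is read from these counts. The one was *Il18*, an epithelial cytokine, with 354 and 545 UMIs (log2 ratio 1.30). *Nfkbia*, an inhibitor and target of NF-kB, had the highest level (2407 and 1767 UMIs, log2 ratio 0.23, 0.14 to 0.32). *Stat3* had 668 and 643 UMIs (0.62, 0.46 to 0.78), and *Il22ra1*, the receptor chain of interleukin-22, had only 26 and 16, too few for a direction. Of 8 *Stat3* targets outside the antimicrobial genes 6 had at least 200 UMIs, and 0 passed 2-fold in either direction (median -0.12). *Socs3*, the feedback inhibitor of this pathway, is on both lists and had 276 and 118 UMIs (-0.55, -0.87 to -0.23), while *Junb* had the highest level of the targets (4530 and 3281 UMIs, 0.21, 0.15 to 0.28).

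**Figure D5:**
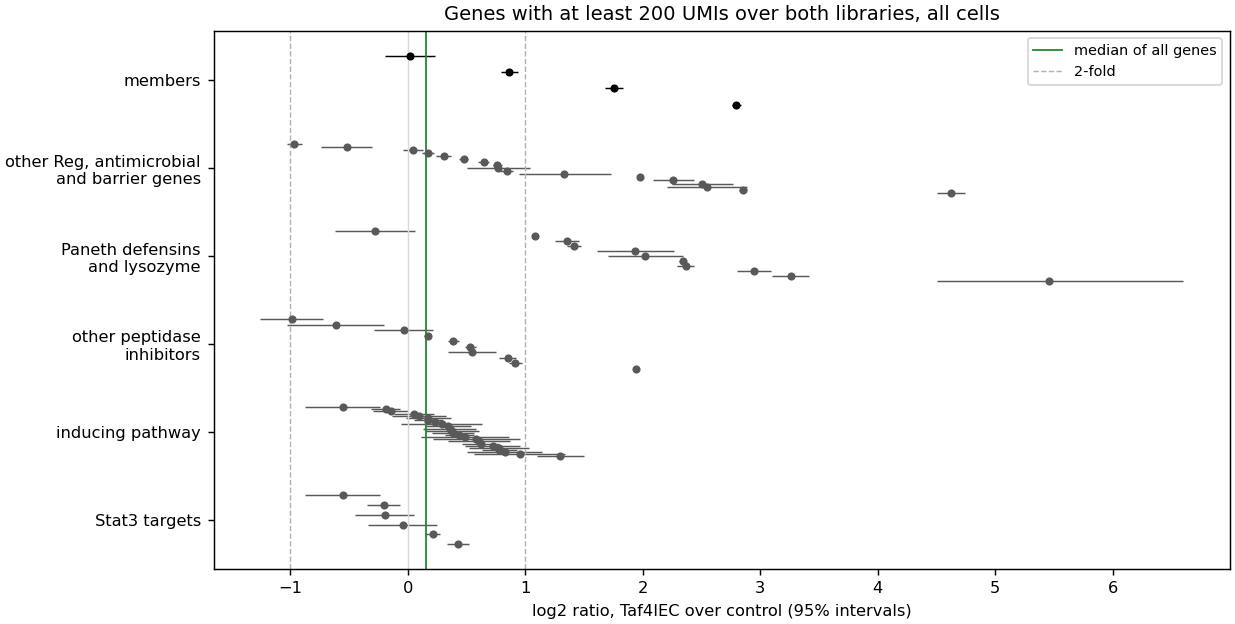
Log2 ratio over all cells, *Taf4IEC* over control, of each gene with at least 200 UMIs over both libraries, by list, with 95% intervals. The green line marks the median of all genes (0.16) and dashed lines mark 2-fold. Most Paneth defensins lie right of 2-fold, 10 of 11, and the inducing pathway and *Stat3* targets lie around the median, with 1 of 24 and 0 of 6 past 2-fold.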

How the data were processed

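Single-cell 3′ RNA-seq of 1 control and 1 *Taf4IEC* enteroid library was analysed. The deposited tables hold raw UMI counts, 1 row per gene and 1 column per cell. Per the labels and the methods of the study, the authors made them with bcl2fastq 2.17.1.14 and Cell Ranger 3.1 on mm10, removed unexpressed genes and filtered cells (at least 200 and at most 6000 genes, mitochondrial reads below 15%), a filter that every cell met. Seurat 3.1.4 was used by the authors afterwards.

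Here, each library was clustered with Seurat 5.3.0 in R 4.3.3 (LogNormalize, 2000 variable genes without the listed ones, 20 principal components, resolution 0.9, UMI count and mitochondrial percent regressed out). Scrublet in scanpy 1.11.5 called 10 control cells (0.39%) and 0 *Taf4IEC* cells, too few to be of use, so no cell was removed and doublets were not addressed. Counts were summed with pandas 2.3.3 and numpy 2.4.6, and intervals computed with scipy 1.17.1, in Python 3.11.15. Levels have exact Poisson, ratios exact conditional binomial and shares Clopper-Pearson 95% intervals. In libraries simulated with Poisson counts, 95.0% of the intervals of 200 changed and 95.3% of those of 9802 unchanged genes held the true ratio. Poisson counts are what the intervals assume, so this checks the computation only. It does not cover a wider spread of the measured counts between cells or libraries. A 2-fold difference stands in for a call. Cells were thinned to 2000 UMIs for shares, which left out shallower cells (7 of 276 control and 74 of 179 *Taf4IEC* Paneth/goblet-like, 18 of 230 and 44 of 181 enterocyte-like, 7 of 1064 and 108 of 437 stem-like).

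The genes, lists and tests were chosen with earlier results of these data known. The text names the genes of the group, genes of each list past 2-fold (at most 10), those with the highest level in a library, the 3 genes most like each gene over clusters, and markers. Promoter sequences are from a RefSeq table, from which the 3 Reg3 genes are shown. Alternatives were other totals, thinning to 500 UMIs, weighting of cells or classes, a minimum of 50 UMIs, resolutions of 0.5 and 1.4, joint clustering, another marker threshold, classes per cell, and cells left out.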

Additional observations from a re-analysis of the deposited data

Results flagged for a closer look

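In the main setting the log2 ratio of *Reg3g* was above 0 in 2 named classes and below 0 in cells without a name, which were different cells in the 2 libraries. It was 0.47 in stem-like cells (272 control and 155 *Taf4IEC* UMIs), 1.67 in Paneth/goblet-like cells (61 and 124 UMIs) and -2.86 in cells without a name (138 and 17 UMIs). The intervals of these values did not overlap 0, and the difference between the classes was not tested. Without the highest cell of each library in the class, the stem-like value was -0.15, the Paneth/goblet-like value 0.07 and the value of the unnamed cells -3.04. The stem-like value was also -0.050 with joint clustering and -0.35 with classes per cell. No opposite direction between cell classes is read from these values.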

How the results depend on the processing

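Over all cells, the number of genes of the group at least 2-fold higher was 2 under all 6 alternatives, and *Itln1*, *Leap2* and *Spink1* were higher and *Reg3a* and *Reg3b* lower under every alternative that gave a value. The causes of the shifts below were not tested. Leaving mitochondrial, ribosomal protein, *Gm42418* and *AY036118* genes out of the total gave log2 ratios of 2.62 for *Itln1*, 0.68 for *Leap2* and 1.58 for *Spink1*. Thinning each cell to 500 UMIs gave 2.63, 0.64 and 1.29, with 0.39 for *Reg3g*, and could not be used for *Reg3a* and *Reg3b*, which had 0 UMIs in a library. Weighting each cell equally gave 2.53, 0.57 and 1.33, with 0.31 for *Reg3g* and -4.38 for *Reg3a*. Weighting classes by the UMI shares of the control gave 0.31 for *Reg3g*, 0.15 for *Leap2* and 1.09 for *Spink1*. Some alternatives were chosen after seeing the data. Cells with at least 20000 UMIs gave 2.94 for *Itln1*, 0.56 for *Leap2* and 1.62 for *Spink1*. For *Reg3a* they gave -0.13 (-1.43 to 1.14, from 13 and 11 UMIs). For *Reg3b* they gave -0.47 (-2.25 to 1.18, from 9 and 6 UMIs), and both intervals held 0. Leaving out the small enterocyte-like control cluster gave -0.19 for *Reg3a*. Leaving out the highest cell or the 2 highest cells of each library gave -0.44 and -0.85 for *Reg3g*.

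With a minimum of 50 UMIs, 1 gene of the group (*Reg3a*) was at least 2-fold lower. Of the other antimicrobial genes 1 was lower with this minimum, with the other total, with thinning and with equal cells. Of the inducing pathway 5 were higher and 2 lower with thinning, 4 and 1 with equal cells, and 1 was lower with the minimum of 50 UMIs. The shares of all genes past 2-fold under these alternatives are not given here, so no change in a list is read from these counts.

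By class, the ratio of *Reg3g* in stem-like cells turned to -0.050 with joint clustering, to -0.35 with classes per cell and to -0.15 without the highest cells, and that of *Leap2* to -1.16 with the stricter marker threshold. The median of the group ranged from 1.31 to 1.91 in Paneth/goblet-like and from -0.91 to 0.20 in enterocyte-like cells over 8 alternatives. No paired analysis was possible because there was 1 library per group. *Reg3a* had 0 UMIs in 8 of the 13 control clusters and *Reg3b* in 6, and each had 0 in 10 of the 13 *Taf4IEC* clusters. The part of depth in this was not tested. Alternatives for *Mptx2* were not run.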

Other observations

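Some further genes of low counts were named after their values were seen. *Reg1*, which lies between *Reg3a* and *Reg3g* on chromosome 6, had 0 UMIs in the control and 141 in the *Taf4IEC* library, 140 of them in 1 cell of an unnamed cluster of 101 cells. *S100a8*, a subunit of the antimicrobial complex calprotectin, had 96 UMIs in 7 control cells, 46 of them in 1 cell, and 0 in the *Taf4IEC* library. *Mptx1*, a pentraxin related to *Mptx2*, had 2 UMIs in the control and 15 in the *Taf4IEC* library, of which 7 were in 1 cell. *Tlr5*, the receptor of flagellin, had 74 and 15 UMIs (log2 ratio -1.63, -2.53 to -0.81), below the minimum of 200 UMIs.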
